A study of Mus musculus with 9 samples.

Results

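Transcripts of 10 superoxide and peroxide scavengers were measured in mouse liver: the superoxide dismutases Sod1, Sod2 and Sod3, the glutathione peroxidases Gpx1, Gpx3 and Gpx4, and the peroxiredoxins Prdx1, Prdx3, Prdx5 and Prdx6. They were taken by symbol from a table of 55253 gene symbols, and all 10 were found and passed the filter on low values (a mean of at least 1 CPM over the 9 libraries). Of the livers, 5 came from male C57Bl/6J mice that ate a Western diet and drank sweetened water holding 10% alcohol over 23 weeks, starting at 10 weeks old (WD+alcohol), and 4 from male C57Bl/6J mice on chow diet and tap water, labelled with the same 23-week time (control). Diet, alcohol and sweetening came together, so their effects cannot be told apart, and age is given for the WD+alcohol mice only. Each library was taken as 1 mouse, and the values are CPM (the reads of a gene scaled to a common library size) after TMM scaling, a correction for library composition.

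Superoxide dismutases turn superoxide, a by-product of respiration and of oxidase enzymes, into hydrogen peroxide. Glutathione peroxidases and peroxiredoxins then reduce hydrogen peroxide or lipid peroxides, the first with glutathione and the second mostly with thioredoxin. In liver these enzymes stand beside catalase in peroxisomes, and hepatocytes meet peroxides from fatty acid oxidation and from ethanol oxidation by cytochrome P450. The comparison bears on how combined Western diet and alcohol feeding changed the levels of these transcripts.

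Libraries held 3635860 to 6643645 reads in genes (WD+alcohol) and 5050763 to 5910285 (control). WD+alcohol 1 had the fewest reads and lay furthest out on the first principal component, at 42.1 against 2.07 to 19.1 for the other WD+alcohol libraries and -22.1 to -16.7 for controls. Hepatocyte markers were abundant: the summed level of the 17 markers in the table was 46157 to 61965 CPM in WD+alcohol and 64742 to 89909 CPM in control livers, and 3 of the 17 (Alb, Apoa1 and Serpina1c) fell. In bulk tissue, fewer cells of a type and less RNA per cell cannot be told apart. Among stellate cell and fibroblast genes, levels differed widely. Col1a1, a collagen chain, was high in both groups, at 1972 ± 151 CPM in WD+alcohol and 2075 ± 108 CPM in control livers (SD, n = 5 and n = 4). Lrat, a marker of resting stellate cells, was at 6.04 ± 2.12 and 4.77 ± 1.65 CPM. Pdgfrb and Des, 2 further markers of the list, averaged 11.0 and 1.34 CPM over the 9 libraries.

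Of the 10 scavengers, 1 rose with Western diet plus alcohol, the extracellular dismutase Sod3, and 0 fell (limma-trend, Benjamini-Hochberg adjusted p under 0.05). Among all 14759 genes tested, 1.61% rose and 0.678% fell, and 1 call among 10 genes (10.0%) is a single gene. At an unadjusted p under 0.05, 3 scavengers were higher (Sod3, Gpx3 and Gpx4) and 0 lower, against 12.2% of all genes in either direction. The quasi-likelihood test of edgeR on recovered reads called Sod3 alone, and DESeq2 called Sod3, Gpx3 and Gpx4, both with 0 lower. The log2 fold change was above 0 for 9 of the 10, with a median of 0.17, against 49.9% of all genes and a median of -0.0008. The 10 genes were chosen with earlier results of these data known, so contrasts with all genes are descriptive only. These comparisons assume that TMM scaling holds. With scaling on hepatocyte markers the median of all genes moved to 0.39, 4461 genes were called higher and 80 lower (238 and 100 with TMM), and 9 of the 10 scavengers were called higher. Relative to that median, Sod3 stood at 0.92, Gpx3 at 1.177, Gpx4 at 0.53, Gpx1 at 0.29, Sod2 at 0.07 and Sod1 at -0.08 on the log2 scale.

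**Figure D1:**
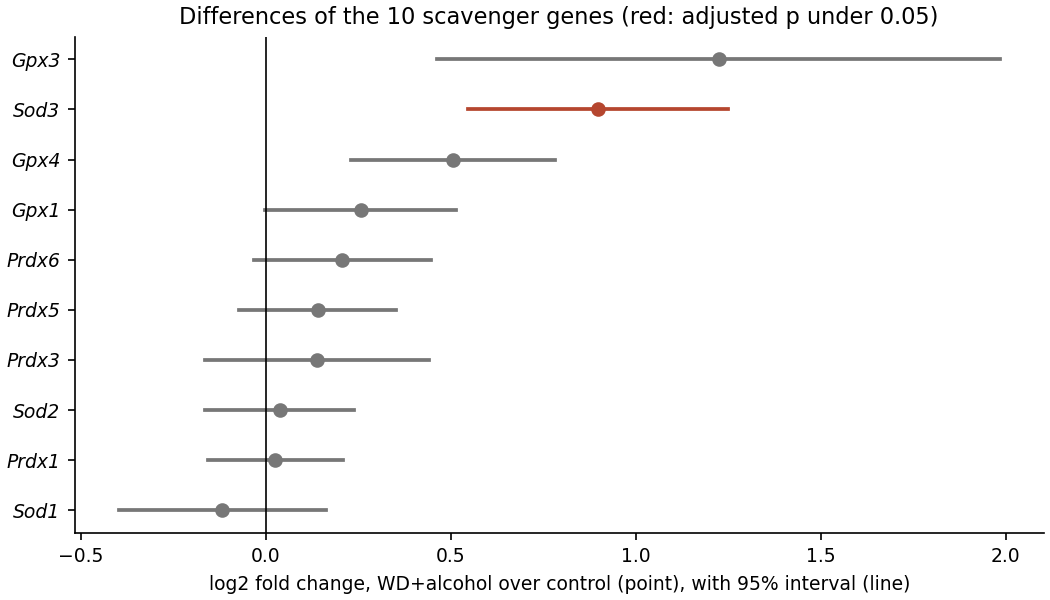
Log2 fold change of each scavenger gene, WD+alcohol over control (points), with its 95% interval from limma-trend (lines), on the log2(CPM + 1) scale. Sod3 (red, 0.90) passed the adjusted threshold, the intervals of Gpx3 and Gpx4 also lay above 0, and those of the other 7 genes included 0.

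The 10 genes spanned a wide range of levels. Reads come from 3′ ends in such libraries, so their number does not grow with transcript length and CPM are set side by side here. The level of Gpx4, and with it its place in the order, is uncertain, because reads that also fit a copy may be divided or left uncounted. The counted reads of the pair summed to 108 CPM. Over the 9 libraries Gpx1 was highest (mean 2281 CPM), followed by Sod1 (1080.5), Sod2 (958), Prdx1 (676), Prdx6 (402), Prdx5 (232), Gpx4 (32.5), Prdx3 (29.0), Sod3 (28.8) and Gpx3 (5.67 CPM). Gpx1 was above Sod1 in 9 of 9 libraries, with ranges that did not overlap. Sod1 and Sod2 were not separated, since Sod1 was higher in 5 of 9 libraries. Gpx4 exceeded Prdx3 in 7 of 9 libraries, with overlapping ranges. The order of Sod3 and Prdx3 differed by group: Sod3 exceeded Prdx3 in 4 of 5 WD+alcohol libraries (means 36.7 and 30.2 CPM), and Prdx3 exceeded Sod3 in 4 of 4 control libraries (means 27.5 and 18.9 CPM). All other neighbours in this order kept their order in 9 of 9 libraries.

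**Figure D2:**
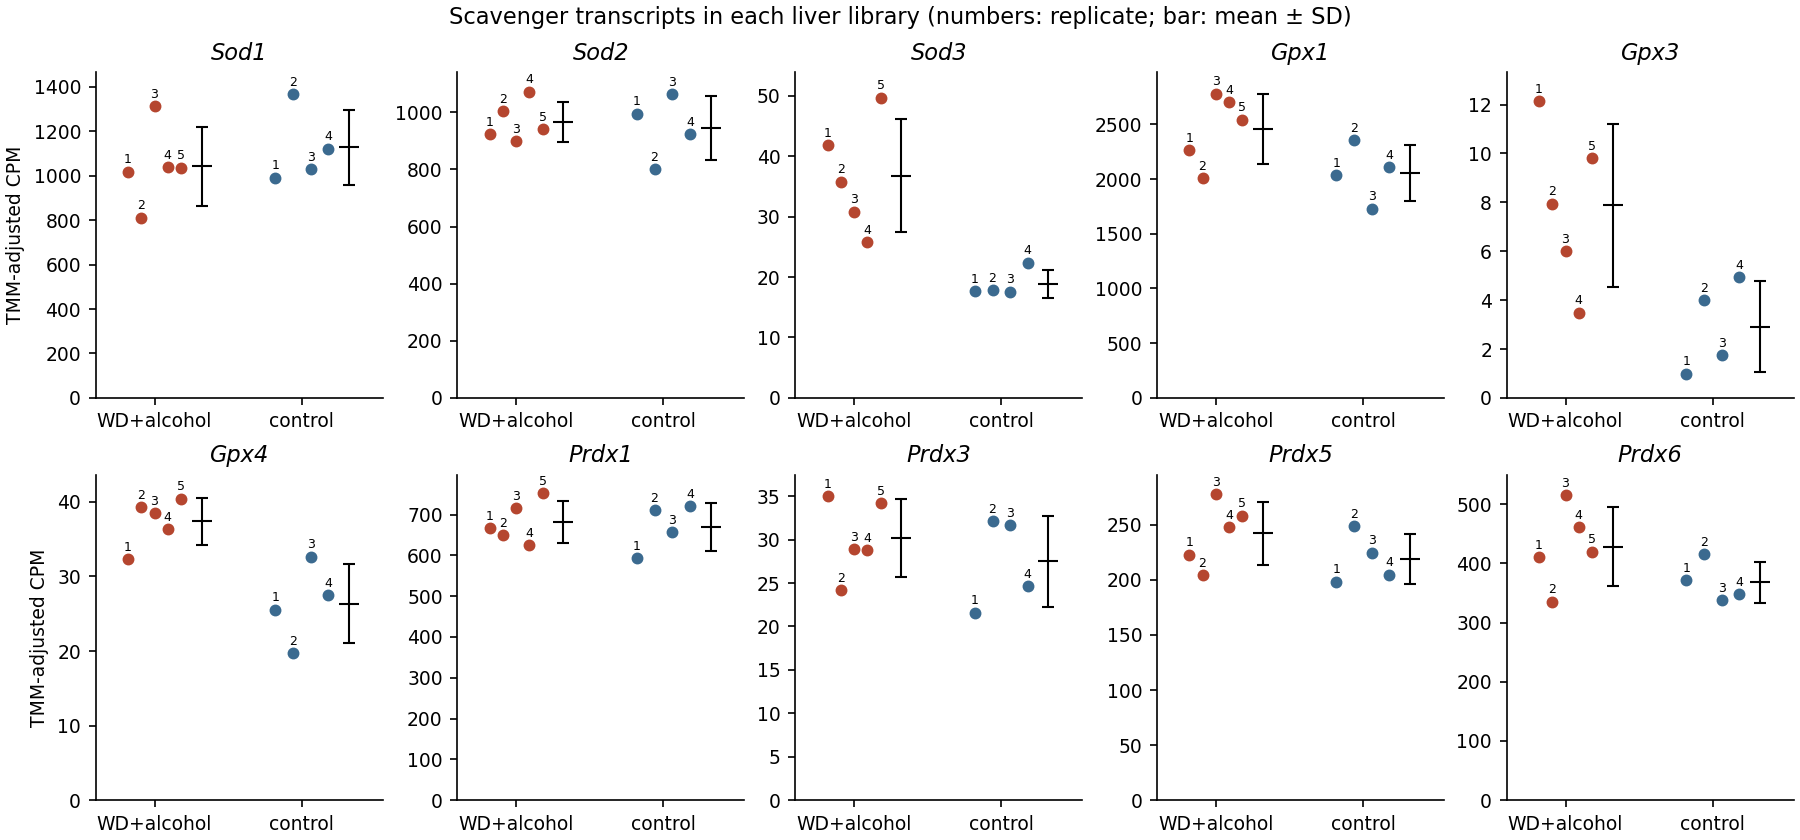
TMM-adjusted CPM of each scavenger gene in each library, WD+alcohol (red, n = 5) left of control (blue, n = 4), with the replicate number above each point and the mean ± SD beside each group. Each panel has its own axis from 0. The groups are apart for Sod3, where the lowest WD+alcohol library (25.8 CPM) lies above the highest control (22.4 CPM), and overlap for the other 9 genes.

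Among the dismutases, Sod3, the copper- and zinc-dependent enzyme secreted to the extracellular matrix, was the gene that rose. It is held there by a basic stretch at its C-terminal end that binds heparan sulfate. The last 75 coding bases before the stop codon encode that stretch, and are shown because this anchor holds Sod3 in the matrix. Capitals mark the 8 arginine and lysine codons (GENCODE vM21, GRCm38, chr5:52368639-52368713, plus strand, coding exon).
Sod3: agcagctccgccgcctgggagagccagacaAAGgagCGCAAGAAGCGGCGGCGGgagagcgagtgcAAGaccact
Sod3 had 41.8, 35.8, 30.8, 25.8 and 49.6 CPM in WD+alcohol 1 to 5, against 17.6, 17.9, 17.6 and 22.4 CPM in control 1 to 4. All 5 WD+alcohol libraries lay above all 4 controls, whereas 3.34% of all tested genes were higher without overlap (5.34% in either direction). The means were 36.7 ± 9.34 CPM (SD, n = 5) and 18.9 ± 2.34 CPM (SD, n = 4), a log2 fold change of 0.90 ± 0.16 (SE; limma-trend adjusted p = 0.00897), or 1.86-fold with a 95% interval of 1.46 to 2.38. By p it ranked 151 among 14759 genes. The values rest on 155 to 248 reads in WD+alcohol and 85 to 118 reads in control libraries. The rise stayed called when any one of the 9 libraries was left out, with log2 fold changes of 0.78 to 1.01 and adjusted p of 0.00233 to 0.0338.

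Fibroblasts and vascular smooth muscle cells are known sources of Sod3. The 9 stellate cell and fibroblast markers summed to 5445 to 6394 CPM in WD+alcohol and 5289 to 6183 CPM in control livers, and 1 of the 9, the proteoglycan Dcn, rose (163 ± 29.9 against 93.0 ± 14.3 CPM; limma-trend adjusted p = 0.00588). Acta2, smooth muscle actin, was at 966 ± 71.2 CPM in WD+alcohol and 1005 ± 88.4 CPM in control livers. Most of the marker sum came from Col1a2, Col1a1 and Acta2 (means of 2312, 2018 and 983 CPM over the 9 libraries), so it says little about the rest. The log2 fold change was below 0 for these 3 and above 0 for the other 6 markers (49.9% of all genes), with a median of 0.15 over the 9. Of 7 endothelial markers, 1 rose (Fcgr2b), and their sum was 155 to 202 CPM in WD+alcohol against 102 to 161 CPM in control livers. All 10 Kupffer cell and macrophage markers rose, with a sum of 647 to 1047 CPM in WD+alcohol against 214 to 352 CPM in control livers. Of the 7 neutrophil markers 3 passed the filter and 0 were called. The 7 had a sum of 21.02 to 42.2 CPM in WD+alcohol against 9.45 to 22.7 CPM in control livers, with overlap. The part of any of these cells in the Sod3 result was not tested.

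Sod1, the cytosolic copper- and zinc-dependent dismutase, had 1019, 811, 1312, 1037 and 1036 CPM in WD+alcohol 1 to 5, against 991, 1368, 1029 and 1121 CPM in control 1 to 4. The groups overlapped, with WD+alcohol 2 below all controls, and the log2 fold change was -0.12 (95% interval -0.40 to 0.16; adjusted p = 0.799). Sod2, the manganese-dependent dismutase of the mitochondrial matrix, had 923, 1003, 899, 1072 and 941 CPM in WD+alcohol 1 to 5, against 996, 801, 1064 and 924 CPM in control 1 to 4. Its log2 fold change was 0.04 (95% interval -0.16 to 0.24; adjusted p = 0.929), and it turned to -0.040 without control 2 and to -0.0004 without WD+alcohol 4. The intervals leave room for folds of 0.759 to 1.12 for Sod1 and of 0.892 to 1.181 for Sod2. The last 188 bases of the longest Sod2 transcript match Dld and several other genes at 95% to 97%, so reads from that long isoform could be divided. A processed pseudogene, Gm8566, matches Sod1 at 97.8% over 465 bases and had 12.2 CPM on average, and Scaf4 (15.0 CPM) overlaps Sod1 on the opposite strand.

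The glutathione peroxidases Gpx1, Gpx3 and Gpx4 carry selenocysteine, an amino acid written by a TGA codon that would otherwise stop translation. The coding bases around that codon are shown because they mark the 3 as selenoproteins, and because the same bases recur in Gpx4-ps2, a pseudogene copy of Gpx4 that bears on the Gpx4 values. Capitals mark the selenocysteine codon, and in Gpx4-ps2 the aligned TGA (GENCODE vM21, GRCm38, plus strand: Gpx1 chr9:108339433-108339471, Gpx3 chr11:54907238-54907276, Gpx4 chr10:80054719-80054757, Gpx4-ps2 chr10:45875450-45875488).
Gpx1: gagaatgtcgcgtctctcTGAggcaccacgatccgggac
Gpx3: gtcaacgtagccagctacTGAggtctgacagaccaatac
Gpx4: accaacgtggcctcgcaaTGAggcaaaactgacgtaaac
Gpx4-ps2: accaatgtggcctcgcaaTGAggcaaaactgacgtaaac
Over these 39 bases Gpx1 shared 19 with Gpx3 and 21 with Gpx4, while Gpx4 shared 38 with Gpx4-ps2, the difference being C384T (position counted from the first base of the Gpx4 transcript).

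Gpx1, the cytosolic and mitochondrial peroxidase that reduces hydrogen peroxide, had 2264, 2007, 2782, 2705 and 2542 CPM in WD+alcohol 1 to 5, against 2037, 2353, 1731 and 2106 CPM in control 1 to 4. In WD+alcohol, 3 libraries lay above all controls (3, 4 and 5), and WD+alcohol 1 and 2 lay inside the control range. The means were 2460.0 ± 322 and 2057 ± 256 CPM, a log2 fold change of 0.26 ± 0.12 (SE) that was not called (95% interval -0.002 to 0.52; adjusted p = 0.417).

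Gpx3, the secreted peroxidase of plasma, was the lowest of the 10. It had 12.1, 7.95, 6.01, 3.48 and 9.81 CPM in WD+alcohol 1 to 5, against 0.989, 3.99, 1.74 and 4.93 CPM in control 1 to 4, from 6 to 52 reads a library. In WD+alcohol, 4 of 5 libraries lay above all controls, and WD+alcohol 4 lay inside the control range. Its log2 fold change, 1.22 ± 0.35 (SE), exceeded that of Sod3, but the spread was wide (coefficients of variation of 42.4% in WD+alcohol and 63.6% in control livers) and the gene was not called (adjusted p = 0.104). It was called by DESeq2 (adjusted p = 0.0273) and without WD+alcohol 4 (adjusted p = 0.0389). It was not called by edgeR (adjusted p = 0.146), by robust limma-trend (0.158) or with the replicate number as a block (limma-trend, 0.496). With 1 library left out the limma-trend adjusted p of Gpx3 ran up to 0.277.

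Gpx4, which reduces lipid hydroperoxides within membranes and restrains ferroptosis, had 32.3, 39.3, 38.5, 36.4 and 40.4 CPM in WD+alcohol 1 to 5, against 25.5, 19.7, 32.7 and 27.5 CPM in control 1 to 4. Only control 3 reached into the WD+alcohol range, just above WD+alcohol 1. The log2 fold change was 0.51 ± 0.13 (SE), or 1.42-fold (95% interval 1.17 to 1.72), with an adjusted p of 0.0604 that missed the threshold. It passed with robust limma-trend (adjusted p = 0.0428), with libraries rescaled to one total (0.0368), with DESeq2 (0.0233) and without control 3 (0.0247). It did not pass with edgeR (adjusted p = 0.0734) or with the replicate number as a block (limma-trend, 0.3115). With 1 library left out the limma-trend adjusted p of Gpx4 ran from 0.0247 to 0.164. Gpx4-ps2 matches the Gpx4 transcript from base 263 to its last base, 995, at 99.7%, with 2 differences (C384T and C699T), both coding, so that the last 296 bases are identical. A 3′ read from that stretch fits both genes equally well.

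Gpx4-ps2 exceeded Gpx4 in 9 of 9 libraries, with 90.8, 82.2, 106, 56.8 and 119.5 CPM in WD+alcohol 1 to 5, against 59.6, 89.7, 34.4 and 39.8 CPM in control 1 to 4. The share of Gpx4 in the sum of the pair was 25.3% to 39.0% in WD+alcohol and 18.04% to 48.7% in control livers, the wider range. Its own log2 fold change was 0.75 ± 0.25 (SE; adjusted p = 0.188). Summed, an alternative chosen after seeing the data, the pair had 123, 121, 145, 93.2 and 160 CPM in WD+alcohol 1 to 5 against 85.2, 109, 67.1 and 67.3 CPM in control 1 to 4. The sum averaged 129 ± 25.4 and 82.2 ± 20.03 CPM, a log2 fold change of 0.64 ± 0.16 (SE; adjusted p = 0.0602), again just short of the threshold. The labels do not say how reads that match more than 1 gene were treated, so the level of Gpx4 itself is uncertain. If such reads were left uncounted, the sum of the pair misses them too.

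**Figure D3:**
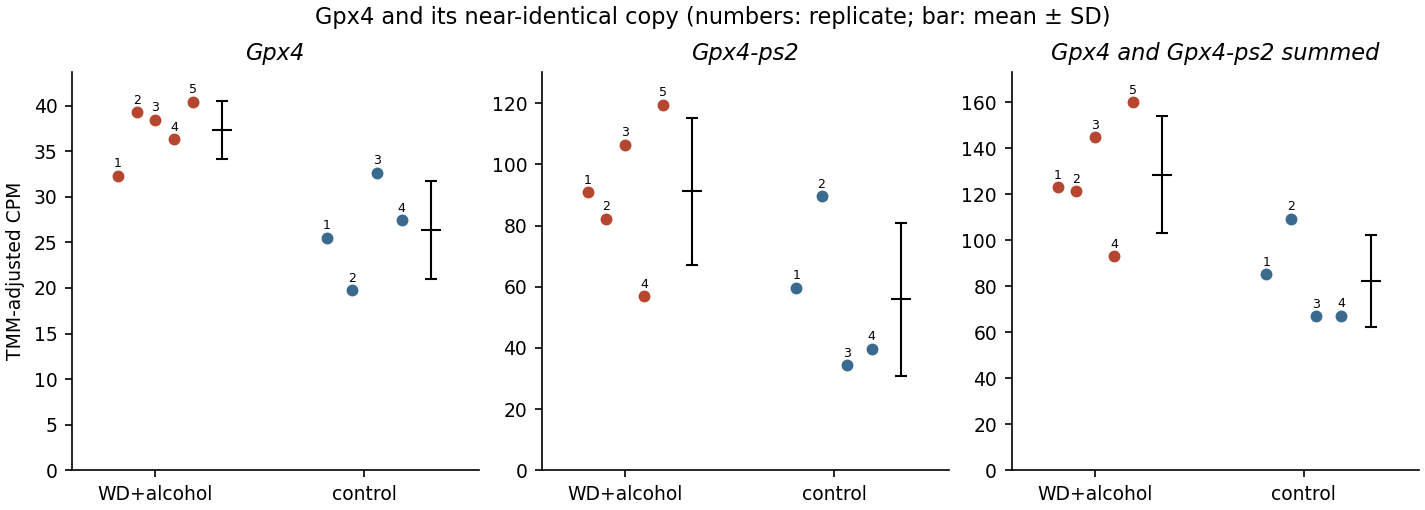
TMM-adjusted CPM of Gpx4, of its near-identical copy Gpx4-ps2 and of their sum in each library, WD+alcohol (red, n = 5) left of control (blue, n = 4), with replicate numbers and the mean ± SD. The highest control reaches into the WD+alcohol range in each panel: control 3 for Gpx4 (32.7 CPM), control 2 for Gpx4-ps2 (89.7 CPM) and control 2 for the sum (109 CPM).

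None of the 4 peroxiredoxins was called. Prdx6, the 1-cysteine peroxiredoxin that also repairs oxidised phospholipids, had 410, 335, 515, 461 and 420 CPM in WD+alcohol 1 to 5, against 372, 416, 338 and 348 CPM in control 1 to 4. In WD+alcohol, 3 libraries (3, 4 and 5) lay above all controls and WD+alcohol 2 lay below them, and the log2 fold change was 0.21 (95% interval -0.03 to 0.45; adjusted p = 0.493). Prdx5, found in mitochondria, peroxisomes and cytosol, had 223, 205, 278, 248 and 258 CPM in WD+alcohol 1 to 5, against 199, 249, 225 and 205 CPM in control 1 to 4. The Prdx5 groups overlapped, with a log2 fold change of 0.14 (95% interval -0.07 to 0.35; adjusted p = 0.641), and Trmt112 (23.5 CPM) overlaps this gene on the opposite strand.

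Prdx3, the peroxiredoxin of the mitochondrial matrix, had 35.04, 24.1, 28.9, 28.8 and 34.2 CPM in WD+alcohol 1 to 5, against 21.6, 32.1, 31.6 and 24.6 CPM in control 1 to 4 (log2 fold change 0.14, 95% interval -0.16 to 0.44; adjusted p = 0.782). Prdx1, the abundant cytosolic peroxiredoxin, had 667, 649, 715, 625 and 752 CPM in WD+alcohol 1 to 5, against 592, 711, 656 and 721 CPM in control 1 to 4. It varied least of all 10 between control mice (coefficient of variation 8.81%), and its log2 fold change of 0.03 had an interval of -0.16 to 0.21 (adjusted p = 0.949), which leaves room for folds of 0.897 to 1.16. Its sign was negative without control 1 (-0.03) or WD+alcohol 5 (-0.010).

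The scavengers together made up 0.533% to 0.654% of all CPM in WD+alcohol and 0.499% to 0.563% in control livers. Their sum was 5628, 5117, 6604, 6242 and 6083 CPM in WD+alcohol 1 to 5, against 5252, 5970, 5127 and 5505 CPM in control 1 to 4, so that 3 WD+alcohol libraries lay above all controls and 1 below them. Gpx1 alone made up 39.2% to 43.3% of the sum in WD+alcohol and 33.8% to 39.4% in control livers, and Sod1 15.9% to 19.9% and 18.9% to 22.9%. Without Gpx1 the other 9 genes summed to 3475 ± 261.8 CPM in WD+alcohol and 3407 ± 165 CPM in control livers. The 3 dismutases summed to 2047 ± 149 CPM in WD+alcohol and 2092 ± 76.4 CPM in control livers, so the rise of Sod3 did not show in the total of its family.

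**Figure D4:**
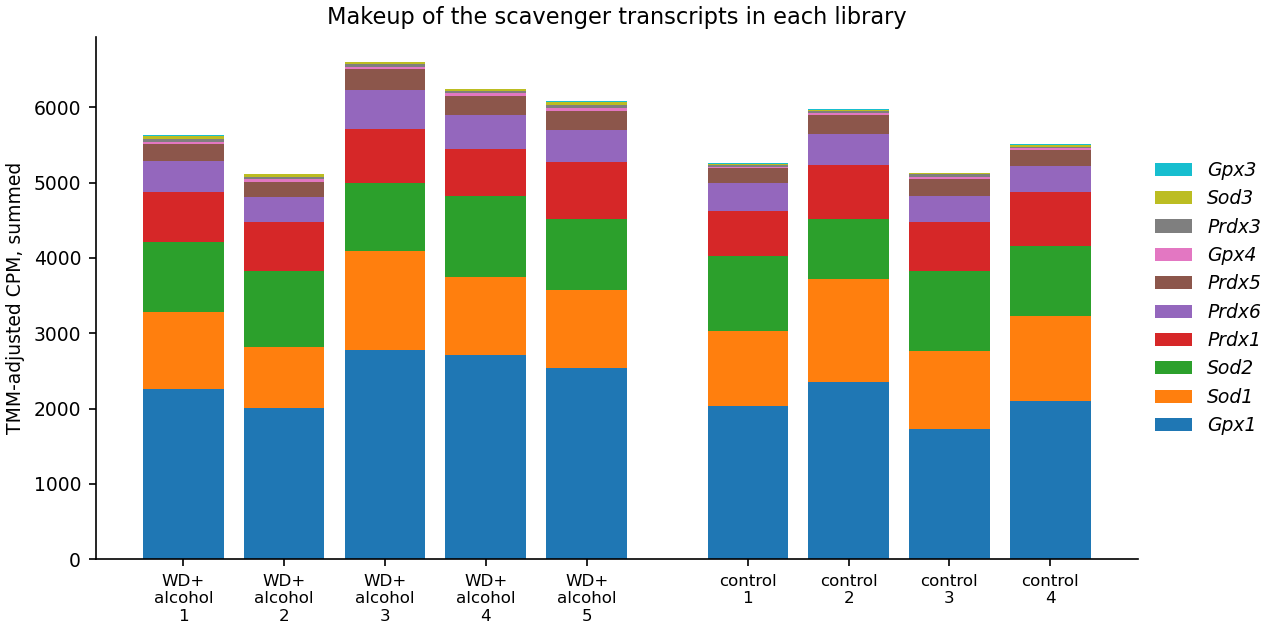
Stacked TMM-adjusted CPM of the 10 scavenger genes in each library, the 5 WD+alcohol libraries left of the 4 controls. Gpx1, Sod1, Sod2 and Prdx1 form most of every bar, totals run from 5117 to 6604 CPM in WD+alcohol and from 5127 to 5970 CPM in control livers, and Sod3 is a thin band.

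Of the 10 genes, 3, 4, 8, 6 and 8 lay above that gene's median over the 9 libraries in WD+alcohol 1 to 5, against 1, 6, 2 and 2 in control 1 to 4. The matching share over all genes was not counted, so these numbers cannot be read as particular to scavengers. WD+alcohol 3 held the highest value of Gpx1, Prdx5 and Prdx6. Erythroid transcripts were also highest in that library: the 7 markers, haemoglobin chains among them, summed to 1077, 1252, 2869, 1485 and 2019 CPM in WD+alcohol 1 to 5, against 1010, 1105, 1144 and 1432 CPM in control 1 to 4. Red cells carry Sod1, Gpx1 and peroxiredoxins, and the part of blood in these values was not tested.

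Among the other superoxide and peroxide scavengers, 1 of 9 tested genes fell and 0 rose (limma-trend; 3 lower and 0 higher at an unadjusted p under 0.05, and the same call with edgeR and DESeq2). Over all genes tested, 2.29% were called and 12.2% had an unadjusted p under 0.05. All lists were chosen with earlier results of these data known, so their shares beside those of all genes are descriptive only. The gene that fell was Gpx6, a glutathione peroxidase best known from olfactory tissue, at 0.347 ± 0.245 CPM in WD+alcohol against 2.33 ± 1.0005 CPM in control livers. It rested on 0 to 3 reads in WD+alcohol and 7 to 19 reads in control libraries, and lost its call when control 2 (adjusted p = 0.0598) or control 3 (0.0606) was left out. Without control 4 its mean fell under the filter. Cat, the peroxisomal catalase, had 930, 739, 1174, 1074 and 991 CPM in WD+alcohol 1 to 5, against 1184, 1310, 1101 and 1252 CPM in control 1 to 4, with a log2 fold change of -0.32 ± 0.12 (SE; adjusted p = 0.255). Prdx4, the peroxiredoxin of the endoplasmic reticulum, was lower in all 5 WD+alcohol libraries (98.5 to 117 CPM) than in all 4 controls (120 to 132 CPM), yet its log2 fold change of -0.23 ± 0.08 was not called (adjusted p = 0.172). Prdx2, the red cell peroxiredoxin, averaged 145 ± 8.46 and 145 ± 9.68 CPM, and Ccs, the copper chaperone of Sod1, 115 ± 14.0 and 110 ± 10.4 CPM. Cat and Prdx4 turned positive with scaling on hepatocyte markers (0.11 and 0.19), below the 0.39 by which all genes moved.

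Of 15 genes listed under the thioredoxin system, which recycles peroxiredoxins, 0 were called with limma-trend and with edgeR. With limma-trend 2.29% of all genes were called. The list also holds glutaredoxins and sestrins. At an unadjusted limma-trend p under 0.05, 4 were higher and 0 lower, against 12.2% of all genes in either direction. DESeq2 called 3 higher (the glutaredoxin Glrx5, Txn1 and Srxn1), and over all genes it called 370 higher and 175 lower. Srxn1, sulfiredoxin, which restores over-oxidised peroxiredoxins, had 51.2, 40.8, 38.1, 21.2 and 54.2 CPM in WD+alcohol 1 to 5, against 16.5, 27.1, 23.3 and 19.3 CPM in control 1 to 4. WD+alcohol 4 lay inside the control range, and the log2 fold change of 0.86 ± 0.23 (SE) missed the threshold (limma-trend adjusted p = 0.0729). Srxn1 passed without WD+alcohol 4 (0.00299), with DESeq2 (0.00621) and with libraries rescaled to one total (0.0403). With 1 library left out its limma-trend adjusted p ran from 0.00299 to 0.209. Txn1, thioredoxin, averaged 431 ± 24.3 CPM in WD+alcohol and 367 ± 13.3 CPM in control livers without overlap (log2 fold change 0.23, adjusted p = 0.111). Txnrd1, thioredoxin reductase, averaged 74.8 ± 4.08 and 69.5 ± 3.88 CPM (adjusted p = 0.649).

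Of 13 tested genes of glutathione and NADPH supply, 1 rose and 0 fell with limma-trend (7.69%, against 2.29% of all genes). The gene was Idh2, the mitochondrial isocitrate dehydrogenase that makes NADPH, and edgeR and DESeq2 called it alone too. At an unadjusted limma-trend p under 0.05, 3 were higher and 0 lower, against 12.2% of all genes in either direction. Idh2 had 136, 123, 155, 108 and 161 CPM in WD+alcohol 1 to 5, against 82.2, 85.5, 81.2 and 104 CPM in control 1 to 4. All WD+alcohol libraries lay above all controls, with a log2 fold change of 0.61 ± 0.12 (SE; adjusted p = 0.0142, and 0.0522 without control 1). Gclc, the catalytic subunit of glutathione synthesis, averaged 67.5 ± 19.005 and 62.4 ± 16.1 CPM, with a sign that turned without control 4 (-0.05) or WD+alcohol 5 (-0.0020). Gsr, glutathione reductase, averaged 21.2 ± 2.75 and 19.7 ± 4.54 CPM.

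Among 15 genes listed under selenoprotein synthesis and selenium supply, 0 were called with limma-trend and edgeR, where limma-trend called 2.29% of all genes. Gpx1, Gpx3 and Gpx4 depend on such synthesis and supply, but the list also holds other selenoproteins. At an unadjusted limma-trend p under 0.05, 2 were higher and 1 lower, against 12.2% of all genes in either direction. DESeq2 called Sephs2, the selenophosphate synthetase, lower, among 175 genes lower over the whole table. Selenop, the selenium carrier secreted by hepatocytes, averaged 2804 ± 437 CPM in WD+alcohol and 2173 ± 283 CPM in control livers. Its log2 fold change was 0.36 ± 0.13 (SE, limma-trend adjusted p = 0.247). With 1 library left out the adjusted p ran from 0.0457 (without WD+alcohol 2) to 0.4805 (without WD+alcohol 5).

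Sources of superoxide and hydrogen peroxide moved both ways, with 2 of 19 tested genes higher and 2 lower (limma-trend, with the same 4 genes called by edgeR and DESeq2). That was 21.1% of the list, against 2.29% of all genes tested. This list was chosen with earlier results of these data known, so the contrast is no measure of an excess of calls. At an unadjusted limma-trend p under 0.05, 4 were higher and 4 lower, against 12.2% of all genes in either direction. Cybb, the catalytic subunit of the phagocyte NADPH oxidase, had 49.3, 42.2, 37.3, 38.2 and 55.2 CPM in WD+alcohol 1 to 5, against 24.1, 23.7, 21.9 and 21.2 CPM in control 1 to 4, a log2 fold change of 0.92 ± 0.12 (SE; adjusted p = 0.000787). Macrophages express this gene, all 10 macrophage markers rose with it, and their part was not tested. Its membrane partner Cyba averaged 30.3 ± 2.91 and 24.4 ± 2.82 CPM and was not called (adjusted p = 0.213). Hao1, a peroxisomal glycolate oxidase, fell to 63.4 ± 6.64 against 104 ± 11.7 CPM (limma-trend adjusted p = 0.00166), a log2 fold change of -0.71. With scaling on hepatocyte markers it was -0.29 (limma-trend adjusted p = 0.105), or -0.68 relative to the 0.39 by which the median of all genes moved. Aox3, an aldehyde oxidase, fell to 57.9 ± 11.6 against 125 ± 15.2 CPM (limma-trend adjusted p = 0.000737). Its log2 fold change of -1.11 was -0.70 with that scaling, or -1.08 relative to the same median.

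Of 12 tested lipid peroxide and ferroptosis genes, 1 rose and 0 fell with limma-trend (8.33%, against 2.29% of all genes). The gene was Ftl1, the ferritin light chain that stores iron, and edgeR and DESeq2 called it alone too. At an unadjusted limma-trend p under 0.05, 3 were higher and 0 lower, against 12.2% of all genes in either direction. Ftl1 had 102, 103, 133, 96.0 and 130 CPM in WD+alcohol 1 to 5, against 77.3, 57.8, 85.5 and 72.2 CPM in control 1 to 4, without overlap (log2 fold change 0.62 ± 0.13, SE; adjusted p = 0.0188, and 0.0597 without WD+alcohol 5). Over the 6 companion lists, 7 of 83 tested genes were called (8.43%, against 2.29% of all genes), 4 higher and 3 lower, with a median log2 fold change of 0.03. Because the lists were chosen with earlier results of these data known, this contrast too is no measure of an excess.

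**Figure D5:**
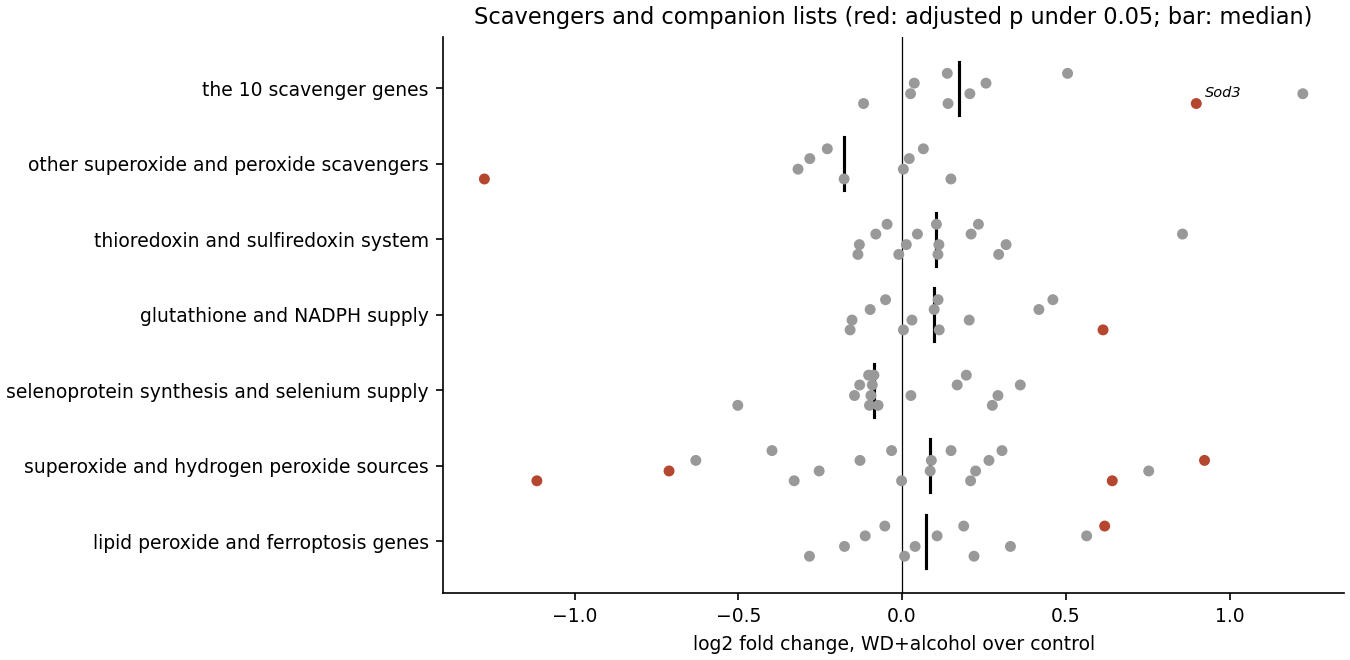
Log2 fold change, WD+alcohol over control, of each tested gene in the scavenger set and the 6 companion lists (points, red where the adjusted p is under 0.05), with each list's median (black bar). Sod3 is the called scavenger, the calls of the source list lie on both sides of 0, and the medians run from -0.18 to 0.17.

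The genes whose profile over the 9 libraries lay nearest to that of Sod3 were Apoa4, an apolipoprotein, Pex11a, which promotes peroxisome division, and Acot2, a mitochondrial acyl-CoA thioesterase (Euclidean distances of 0.79, 0.82 and 0.85 between standardised log2 values, among 6395 genes averaging 20 CPM or more). All 3 were higher in every WD+alcohol library than in every control, as Sod3 was. They were chosen for likeness over the same 9 libraries, so shared separation and order follow from the choice and are not a separate result. Apoa4 had 743, 683, 520, 211 and 1348 CPM in WD+alcohol 1 to 5, against 48.4 to 112 CPM in control livers, so WD+alcohol 5 was highest and WD+alcohol 4 lowest of the WD+alcohol group for Apoa4 and for Sod3. Nearest to Gpx1 were Tmem220, C1s1, a complement protease, and Scly, which frees selenium from selenocysteine, at distances of 0.74, 0.81 and 0.96. Scly had 36.9, 30.7, 48.6, 44.2 and 45.8 CPM in WD+alcohol 1 to 5, against 33.1, 43.9, 29.5 and 36.6 CPM in control 1 to 4. Its highest value was in WD+alcohol 3 and its lowest in control 3, as for Gpx1, which again follows from the choice by likeness.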

How the data were processed

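Liver RNA was made into Collibri 3′ mRNA libraries, per the labels' protocols. The submitters' processing notes name Trim Galore 0.6.0, cutadapt 1.18, STAR, HTSeq 0.11.0, edgeR 3.28.1, R 3.6.3 and the build GRCm39 (mm39). Strand use and multimapping reads are not given in the sources used here. The deposited values are a signal, TMM-adjusted CPM made by the authors. All positive values (100%, relative tolerance 1e-06) were whole multiples of 1 read, so reads were recovered. On these reads edgeR 4.0.16 called 222 genes higher and 93 lower. A floor of 3 reads was 0.454 to 0.809 CPM and covers counting error only.

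The test was limma-trend (limma 3.58.1 under R 4.3.3) on log2(CPM + 1), two-sided, for all genes that averaged 1 CPM or more, with adjustment over all of them. Such fold changes understate low genes. The fit was tested on simulated data. No batch is given in the labels. Alternatives were pseudocounts of 0.25 and 5, filters, scalings, edgeR, DESeq2 1.42.0, a replicate block and each library left out.

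The 10 members and all lists were chosen with earlier results of these data known. Named genes are all members, each list's called genes (or its most abundant gene), 11 genes set by name, the nearest profiles and copies of members; 1 called gene of the source list is not reported here. Dcn, Fcgr2b, Col1a1, Col1a2, Acta2, Lrat, Pdgfrb, Des, Glrx5, Sephs2, Nnt, Dao, Gpx2, Gpx5, Adipoq, Plin1 and Retn were named after their values were seen. Cholangiocyte and adipocyte markers were also summed. Coordinates and sequences are from GENCODE vM21 (GRCm38), another build than the counts; copies were matches of at least 95% over at least 100 bases.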

Additional observations from a re-analysis of the deposited data

Results flagged for a closer look

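In 60 groups of 4 or 5 libraries (28 named genes, Gpx4-ps2 and the sum of the 10 scavengers, each in WD+alcohol and in control livers), 2 held a library far from the others by Dixon's criterion, and chance flags about 1 in 20 groups. Sod3 stood at 22.4 CPM in control 4, against 17.6 to 17.9 CPM in the other 3 controls. Without control 4 the log2 fold change of Sod3 was 0.98 (limma-trend adjusted p = 0.0118). Hao1 stood at 51.8 CPM in WD+alcohol 2, against 64.4 to 67.6 CPM in the other 4 WD+alcohol libraries.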

How the results depend on the processing

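Of 23 alternatives, 2 were added after seeing the data (Gpx4 summed with its copy, and trimmed-mean factors recomputed); every planned one was run. Genes called over the whole table numbered 238 higher and 100 lower, 365 higher with libraries rescaled to one total, 4461 higher with scaling on hepatocyte markers, 370 higher and 175 lower with DESeq2, and 139 to 264 higher and 59 to 123 lower with 1 library left out (139 and 62 without WD+alcohol 5, 148 higher without control 1, 59 lower without control 2). Scavengers called higher numbered 1, against 2 with libraries rescaled to one total or robust limma-trend, 3 with DESeq2, 9 with scaling on hepatocyte markers, and 1 to 2 with 1 library left out (2 without WD+alcohol 4 or control 3), while 0 were lower throughout. Companion genes called higher numbered 4, against 7 with DESeq2, 39 with scaling on hepatocyte markers and 3 to 6 with 1 library left out. The replicate numbers do not pair the mice: same-numbered deviations correlated at -0.311 to -0.0075 over 4 pairs, and 0 of 4 libraries correlated best with their own number. With the replicate number as a block, which leaves WD+alcohol 5 without weight, 76 genes were higher and 36 lower, 0 scavengers (Sod3 at 0.78, adjusted p = 0.105) and 1 companion gene were higher, and Prdx1 (-0.010), Prdx2 (-0.012) and Gclc (-0.0020) turned negative. Signs also turned with scaling on hepatocyte markers for Sod1 (0.31), Cat (0.11) and Prdx4 (0.19), and with edgeR and DESeq2 for Prdx2 (-0.0007 with each). With 1 library left out, Sod2 ran from -0.040 to 0.10, Prdx1 from -0.032 to 0.063, Prdx2 from -0.030 to 0.040, Ccs from -0.0022 to 0.11 and Gclc from -0.048 to 0.24. The cause of these shifts was not tested. Sod3 kept its call in all alternatives other than the block. Depth limits the values of Gpx3 and Gpx6, which rest on 6 to 52 and 0 to 19 reads a library.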

Other observations

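Nnt, the mitochondrial transhydrogenase that makes NADPH and is disrupted in C57BL/6J mice, was listed at 0 in all 9 libraries, as were Gpx5 and Dao. A count of 0 allows up to 0.454 to 0.809 CPM (WD+alcohol) and 0.494 to 0.630 CPM (control). Gpx2, the peroxidase of gut epithelium, had at most 1 read in a library.

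Of the pseudogene copies of Prdx1 and Sod1, 2 had these values, and neither was called. The Prdx1 pseudogene Gm21399, identical to Prdx1 at 98.3% over 597 bases, averaged 4.65 ± 0.73 CPM in WD+alcohol and 4.95 ± 1.11 CPM in control livers (adjusted p = 0.936), against 682 and 670 CPM for Prdx1. The Sod1 pseudogene Gm8566 averaged 12.4 ± 2.55 and 11.97 ± 1.95 CPM (adjusted p = 0.965).

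The 6 cholangiocyte markers, of which 4 passed the filter, had a sum of 212 to 258 CPM in WD+alcohol and 218 to 235 CPM in control livers. Of 6 adipocyte markers 2 were tested and both rose (Cfd and Fabp4). The sum of the 6, nearly all from Cfd and Fabp4, was 27.8 to 146 CPM in WD+alcohol against 9.23 to 16.3 CPM in control livers. Adipoq, Plin1 and Retn were below the filter (means of 0.04, 0.22 and 0.04 CPM over all libraries), and Lep was listed at 0 in all libraries.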
